A study of Mus musculus with 18 samples.

Results

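Bile acids are made from cholesterol in hepatocytes, joined to taurine, pumped into bile and taken up again from portal blood. The classic route opens with the 7α-hydroxylase Cyp7a1 and the alternative route with the mitochondrial 27-hydroxylase Cyp27a1, whose oxysterol products are hydroxylated by Cyp7b1, while Cyp8b1 adds the 12α-hydroxyl group that makes cholic acid. Baat joins the acids to taurine, Slc10a1 (NTCP) takes them up, and Abcb11 (the bile salt export pump) and Abcb4 (a phosphatidylcholine floppase) serve the canalicular membrane. The bile acid receptor Nr1h4 (FXR) and the repressor Nr0b2 (SHP), which FXR induces, are known to restrain synthesis. These 10 genes were chosen by name from the pathway, with earlier results of these data known. All 10 had a value among the 23111 named genes of the arrays.

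The livers came from adult male C57Bl/6N mice, and 1 array was run for each of 18 mice, in 6 groups of 3. The hepatotoxin carbon tetrachloride (CCl4), dissolved in olive oil, was injected at 1.6 g/kg 2 times weekly over 2, 4, 6, 8 or 10 weeks, and the labels give ages of 12, 14, 16, 18 and 20 weeks in the same order. Age and weeks of CCl4 therefore go together among them. Control mice were 20 weeks old by the labels, which place them at week 10. The sources differ on them: they are called untreated in one place and oil-injected in another, and the paper's text also gives an earlier control time, at the start of the study. Their age therefore cannot be settled for any comparison. All groups shared strain, sex and the right liver lobe, and treated livers were taken 2 days after the last dose. The deposited values are log2 intensities after RMA normalisation, between 3.61 and 14.12, and the number of arrays limits the precision.

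Several facts of the whole series touch the results. Replicates 1 and 2 of week 6 differed less from each other than any other pair of replicates: over 500 variable genes their log2 differences had an SD of 0.137, against 0.347 to 0.832 for the 17 other pairs. They were counted as 1 sample, which leaves n = 2 at week 6 and 17 samples in all. In fits without 1 array, leaving out either of them kept the other, so that sample was never left out as a whole. Counts of arrays below keep these 2 apart, and how many of all genes lay outside the control range in this way was not counted. Replicate 2 of week 10 carried transcripts of the pancreas, with Ctrb1 (chymotrypsinogen) at 7.67 on it and at 4.50 to 5.07 on the other 17 arrays. Over 8 pancreatic genes, the mean log2 level was 5.59 on this array and 4.26 to 4.57 on the other 17. A bulk liver sample cannot tell fewer hepatocytes from less RNA per hepatocyte. Over 11 hepatocyte genes, Ttr and Apoa1 among them, the mean level was 12.77 to 12.88 in treated livers and 12.72 to 12.76 in control livers, and 0 of the 11 were called at any week. Genes of pericentral hepatocytes, the zone around the central vein, were lower: over 13 of them, Cyp2e1 and Glul among the listed, the mean level was 7.97 to 9.12 in treated and 9.69 to 9.78 in control livers. Of these 13, 4, 4, 6, 3 and 3 were called lower at weeks 2 to 10 and none higher. Over all genes 0.575%, 0.355%, 1.86%, 0.398% and 0.762% were called lower at these weeks. Over 16 macrophage genes the mean level was 7.02 to 8.52 in treated and 6.21 to 6.67 in control livers. Over 14 genes of stellate cells and myofibroblasts it was 6.58 to 8.26 in treated and 5.84 to 6.16 in control livers. The part of these zones and cell types in the results was not tested.

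Bile acid genes were not called as a block, although most lay below control. Cyp7b1 fell about 8-fold on average and was called lower at weeks 2, 6, 8 and 10. Cyp8b1 and Cyp27a1 were called lower at week 6 alone, and the other members, among them the rate-limiting Cyp7a1, the uptake carrier, both canalicular pumps and the receptor, were called at no week. A gene was called when limma's p-value, adjusted over all 23111 genes by the Benjamini-Hochberg method, was under 0.05 and the change exceeded 1.5-fold. By this rule 1, 0, 3, 1 and 1 of the 10 members were lower at weeks 2, 4, 6, 8 and 10, where 0.575%, 0.355%, 1.86%, 0.398% and 0.762% of all genes were. For the mean of the 5 CCl4 weeks the count was 1, beside 0.939% of all genes. No member was called higher in any of these 6 comparisons, where 0.831%, 0.528%, 2.98%, 0.563% and 1.31% of all genes were at the weeks in order and 1.64% for the mean. The median log2 change of the 10 members was −0.23, −0.11, −0.62, −0.18 and −0.36 at weeks 2 to 10, beside −0.01, −0.01, −0.02, −0.01 and −0.01 over all genes. Of the 10 members, 7, 7, 9, 7 and 9 had a change below 0 at weeks 2 to 10, and 9 for the mean of all weeks. For that mean, 6 members had an unadjusted p under 0.05 by limma, beside 5257 of all 23111 genes. The 5 weekly comparisons share the same 3 control livers.

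**Figure D1:**
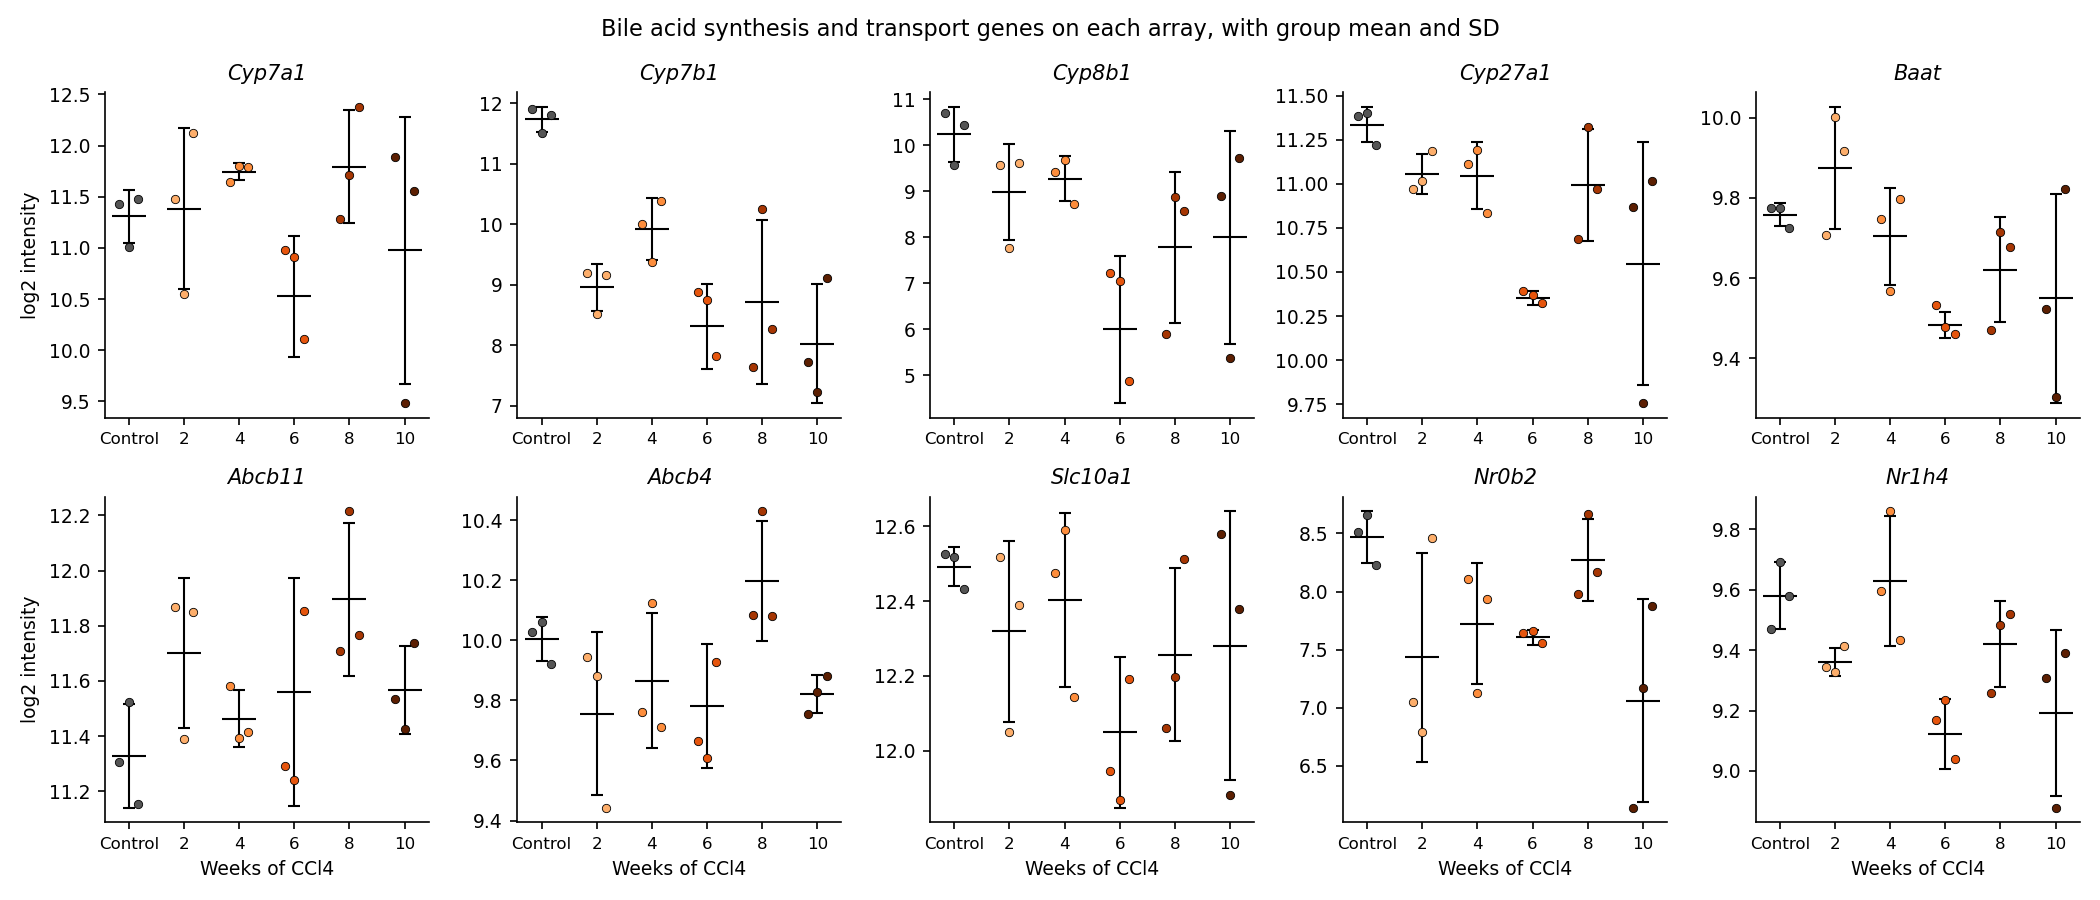
Log2 intensity of the 10 genes on each of the 18 arrays (points), with the mean and SD of each group (bars); the x axis gives the control group and weeks of CCl4, and each panel has its own y axis. Cyp7b1 lies between 7.23 and 10.38 in treated livers, below the 11.51 to 11.90 of control livers, while Cyp8b1 spreads from 4.86 to 9.72 in treated livers.

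**Figure D2:**
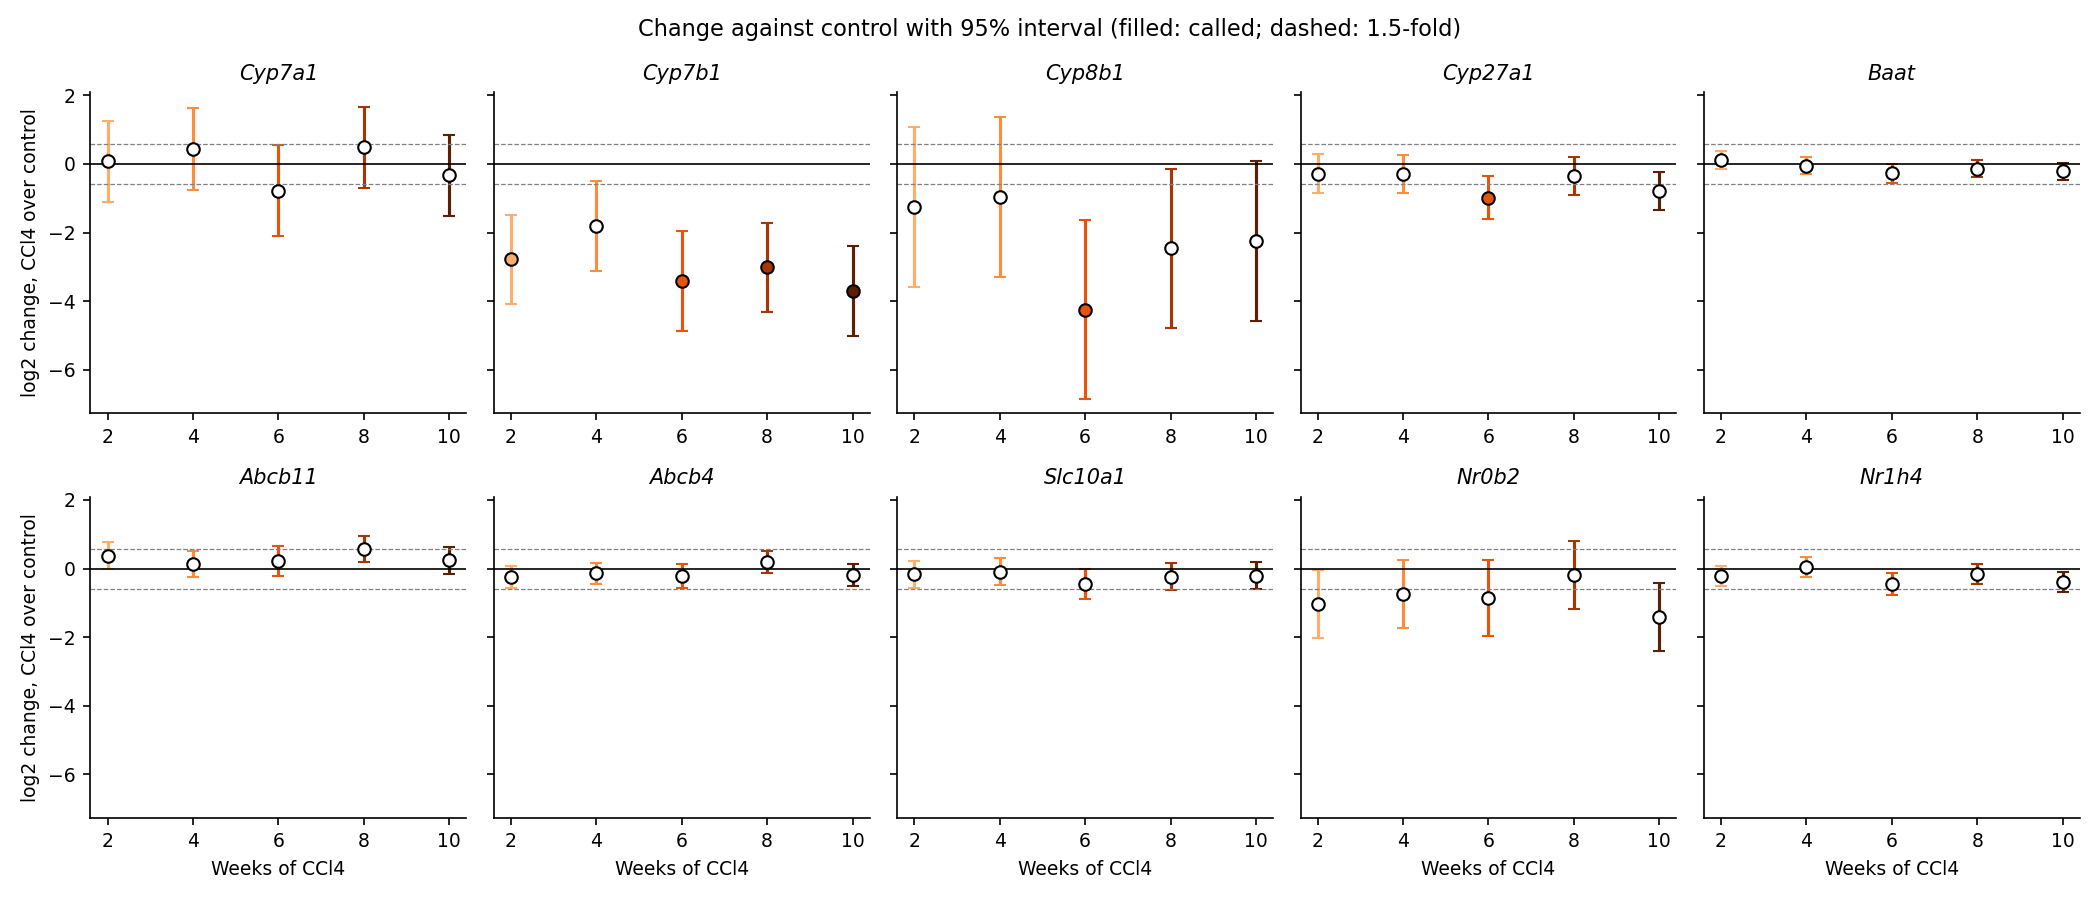
Log2 change of each gene against control at each week of CCl4 (points) with its 95% interval (bars) from the limma model; filled points were called, and dashed lines mark 1.5-fold. Cyp7b1 is filled at 4 of 5 weeks, Cyp8b1 and Cyp27a1 at week 6, and the intervals of Baat, Abcb4, Slc10a1 and Nr1h4 are narrow.

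Cyp7b1, the oxysterol 7α-hydroxylase of the alternative route, which male mouse liver is known to express above female liver, had the largest average change of the members. It read 9.19, 8.51 and 9.16 at week 2, 10.01, 9.37 and 10.38 at week 4, and 8.87, 8.75 and 7.81 at week 6. It read 7.64, 10.24 and 8.27 at week 8 and 7.73, 7.23 and 9.12 at week 10, against 11.90, 11.51 and 11.80 in control livers. All 15 treated arrays, with replicates 1 and 2 of week 6 counted apart, lay below the lowest control liver, so the groups did not overlap. On average it fell by 2.95 on the log2 scale, which is 7.73-fold (95% interval −3.97 to −1.93, adjusted p = 0.0025 by limma). The change was −2.78 at week 2, −1.82 at week 4, −3.42 at week 6, −3.02 at week 8 and −3.71 at week 10. Week 4 stood closest to control and was the week not called (adjusted p = 0.178), while adjusted p was 0.0305, 0.0077, 0.0273 and 0.0057 at weeks 2, 6, 8 and 10. Among the 5 weeks themselves the moderated F-test gave adjusted p = 0.474, so their order (week 4 highest, then 2, 8, 6 and 10) was not separated beyond the spread between mice. The call for the mean of all weeks held without any 1 array, though replicates 1 and 2 of week 6 were never left out together. The call at week 2 was lost without any 1 control liver or any 1 liver of week 2 (adjusted p up to 0.132), and at week 6 without its replicate 3 (adjusted p = 0.0837). The call at week 8 was lost without any 1 control liver or without replicate 1 or 3 of week 8 (adjusted p up to 0.102), and with only both groups in the fit (adjusted p = 0.106).

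Among the 542 named genes with an SD above 0.5 over the 17 samples, those that ran most like Cyp7b1 were Hsd3b5, a steroid dehydrogenase of male liver, Dio1, a thyroid hormone deiodinase, and the complement gene C6 (Pearson r = 0.92, 0.91 and 0.90). The 17 samples include the controls, so these values share the difference between treated and control livers. Of 17 genes that male mouse liver is known to express above female liver, C6 and Hsd3b5 among them, 11, 8, 11, 9 and 13 were called lower at weeks 2 to 10, with median log2 changes of −1.91, −1.82, −2.91, −2.92 and −2.71. Over all genes 0.575%, 0.355%, 1.86%, 0.398% and 0.762% were called lower at these weeks. The list of 17 was chosen with earlier results of these data known. The mean level of the 17 was 5.97 to 7.42 in treated livers and 8.67 to 8.97 in control livers. These genes moved with Cyp7b1, and their part in its change was not tested.

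Cyp8b1, the sterol 12α-hydroxylase that sets how much cholic acid is made, varied most from mouse to mouse. It read 9.57, 7.77 and 9.61 at week 2, 9.42, 9.68 and 8.72 at week 4, and 7.22, 7.04 and 4.86 at week 6. It read 5.88, 8.88 and 8.58 at week 8 and 8.90, 5.37 and 9.72 at week 10, against 10.71, 9.56 and 10.45 in control livers. At weeks 6 and 8 all 3 arrays lay below the lowest control liver, and over all weeks 11 of 15 did, with 4 inside the control range. It fell by 4.25 at week 6, which is 19-fold (95% interval −6.84 to −1.65, adjusted p = 0.042). The changes at weeks 2, 4, 8 and 10 were −1.26, −0.97, −2.46 and −2.24 (adjusted p = 0.684, 0.781, 0.315 and 0.256), with intervals as wide as −4.57 to 0.08 at week 10. Week 6 read lowest and week 4 highest, but the F-test among weeks gave adjusted p = 0.55. The call at week 6 was lost without any 1 control liver, without replicate 3 of week 6 (change −3.11, adjusted p = 0.335), without replicate 1 or 3 of week 2, replicate 1 or 2 of week 4 or replicate 1 of week 10 (adjusted p from 0.0504), and with a robust prior (adjusted p = 0.063). At week 10 the change was −0.93 without replicate 2, the array with pancreatic transcripts.

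The promoter of Cyp8b1 is shown because the gene had the largest change at week 6 among the members and because it holds 2 of the motifs searched, overlapping each other. RefSeq (GRCm38.p6) gave promoters for 7 of the 10 members, namely Cyp8b1, Cyp27a1, Abcb11, Abcb4, Slc10a1 (with 2 starts), Nr0b2 and Nr1h4, and none for Cyp7a1, Cyp7b1 and Baat. In the 250 bases before to 50 after each start, both strands were searched for 5 motifs. Among them were AGGTCA (the hexamer that many nuclear receptors bind), CAAGGNCA (the core bound by LRH-1, Nr5a2), CAAAGTCCA (a core of HNF4 sites) and TTCNNNGAA (the STAT palindrome). The other was an inverted repeat of FXR (IR-1): the last 5 bases of the nuclear receptor hexamer, any 1 base, and their reverse complement. The 250 bases before the start are given 5′ to 3′ on the gene's strand, with every match in capitals, for Cyp8b1 (chr9:121916306-121916555, minus strand), Nr0b2 (chr4:133553126-133553375, plus strand) and Abcb11 (chr2:69342617-69342866, minus strand), an enzyme that fell, the repressor and a pump that was not called.
Cyp8b1: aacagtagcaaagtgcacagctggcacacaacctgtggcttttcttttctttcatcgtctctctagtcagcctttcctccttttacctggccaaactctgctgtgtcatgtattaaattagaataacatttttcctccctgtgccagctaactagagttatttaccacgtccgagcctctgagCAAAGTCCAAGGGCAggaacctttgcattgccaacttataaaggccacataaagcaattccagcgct
Nr0b2: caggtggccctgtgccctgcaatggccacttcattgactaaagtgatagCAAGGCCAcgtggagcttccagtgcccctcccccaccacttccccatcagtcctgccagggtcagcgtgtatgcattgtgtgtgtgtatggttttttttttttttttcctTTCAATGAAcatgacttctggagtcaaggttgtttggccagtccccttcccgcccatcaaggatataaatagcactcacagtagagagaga
Abcb11: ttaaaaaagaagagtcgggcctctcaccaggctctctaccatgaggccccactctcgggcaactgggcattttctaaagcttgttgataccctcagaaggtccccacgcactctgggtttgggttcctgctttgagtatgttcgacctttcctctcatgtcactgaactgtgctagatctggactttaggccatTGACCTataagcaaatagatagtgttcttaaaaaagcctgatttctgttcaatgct
In Cyp8b1 the HNF4 core begins at −67 from the start and the LRH-1 core at −60, and the 2 matches overlap. Of all 32851 promoters in the table, 0.475% hold the HNF4 core and 6.71% the LRH-1 core. In Nr0b2 an LRH-1 core begins at −201 and a STAT palindrome at −91, and 8.3% of all promoters hold the palindrome. In Abcb11 the match is 1 such hexamer, read on the other strand, which 16.3% of promoters hold. The inverted repeat of FXR in this form, held by 0.0396% of promoters, was matched in none of the 8 promoters of members. Only exact matches were counted, so repeats that differ from it by a base were not searched for. Cyp27a1 and Abcb4 had no match to any of the 5 motifs. A match is a stretch of letters and not a measured site. Of the factors named here, Hnf4a and Nr5a2 did not pass the test (values looked up for this comparison): Hnf4a stood between −0.29 and 0.02 and Nr5a2 between −0.14 and 0.09 over the 5 weeks.

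Cyp27a1, the mitochondrial enzyme that opens the alternative route and shortens the sterol side chain, read 10.97, 11.02 and 11.19 at week 2, 11.11, 11.19 and 10.83 at week 4, and 10.39, 10.37 and 10.33 at week 6. It read 10.69, 11.32 and 10.97 at week 8 and 10.87, 9.76 and 11.02 at week 10, against 11.39, 11.40 and 11.22 in control livers. Of the 15 treated arrays, 14 lay below every control liver and 1, replicate 2 of week 8, inside their range. It fell by 0.98 at week 6, which is 1.97-fold (95% interval −1.61 to −0.36, adjusted p = 0.0493), so close to the threshold that leaving out any 1 of 13 arrays lifted the adjusted p above it (0.0506 to 0.22). Those 13 were every liver of control, week 2 and week 4, replicates 2 and 3 of week 6, replicate 3 of week 8 and replicate 1 of week 10. At week 10 the change was −0.79 (adjusted p = 0.0983), and it was −1.02 (adjusted p = 0.0495) without replicate 3 of that week but −0.39 (adjusted p = 0.213) without replicate 2. The changes at weeks 2, 4 and 8 were −0.28, −0.29 and −0.34 (adjusted p = 0.719, 0.708 and 0.619).

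Cyp7a1, the rate-limiting enzyme of the classic route, was called at no week and moved to either side of control. It read 11.48, 10.55 and 12.12 at week 2, 11.65, 11.80 and 11.79 at week 4, and 10.98, 10.91 and 10.11 at week 6. It read 11.29, 11.71 and 12.38 at week 8 and 11.89, 9.48 and 11.55 at week 10, against 11.43, 11.01 and 11.48 in control livers. All 3 arrays of week 4 lay above the control range and all 3 of week 6 below it. The changes were 0.08, 0.44, −0.78, 0.49 and −0.33 at weeks 2 to 10 (adjusted p = 0.979, 0.817, 0.512, 0.769 and 0.794). For the mean of all weeks the change was −0.02 with a 95% interval of −0.95 to 0.90, which leaves room for a change of over 1.5-fold in either direction. The genes most like Cyp7a1 over the 17 samples were Csad, an enzyme of taurine synthesis, the cytochrome P450 Cyp2c29 and the organic anion transporter Slc22a7 (r = 0.84, 0.72 and 0.72). Those most like Cyp8b1 were the carboxylesterase Ces3b, Slc22a7 and the cytochrome P450 Cyp2c54 (r = 0.92, 0.88 and 0.81).

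The 2 treated arrays with the lowest Cyp7a1 also had the lowest Cyp8b1. Against control the 2 genes differed. Cyp7a1 lay below the control range on 5 of 15 treated arrays and above it on 8, and Cyp8b1 below it on 11 and above it on 0. Over the 14 treated samples Pearson's r was 0.80 (permutation p = 0.0016, adjusted over 4 pairs 0.0064) and Spearman's rho 0.61 (permutation p = 0.0225, adjusted 0.0899). As deviations from the mean of each week, r was 0.87 (exact permutation within weeks, p = 0.0158, adjusted 0.0633). Without the 2 samples farthest from the median of Cyp7a1, replicate 2 of week 10 and replicate 3 of week 6, r was 0.53 (permutation p = 0.0784, adjusted 0.116), so the relation rests on those samples. Replicate 2 of week 10 is the array with pancreatic transcripts. The repressor Nr0b2 had r = 0.33 with Cyp7a1 and 0.11 with Cyp8b1 (permutation p = 0.254 and 0.707, adjusted 0.338 and 0.707, rho 0.37 and 0.07), and 0.52 with the pump Abcb11 (permutation p = 0.0568, adjusted 0.114, rho 0.45). Replicate 1 of week 10 and replicate 2 of week 2 lay farthest from the median of Nr0b2. Without them its r were 0.53, 0.25 and 0.51 in the same order (permutation p adjusted 0.116, 0.436 and 0.116). No pair with Nr0b2 passed the adjustment, and all 3 of its r were positive.

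**Figure D3:**
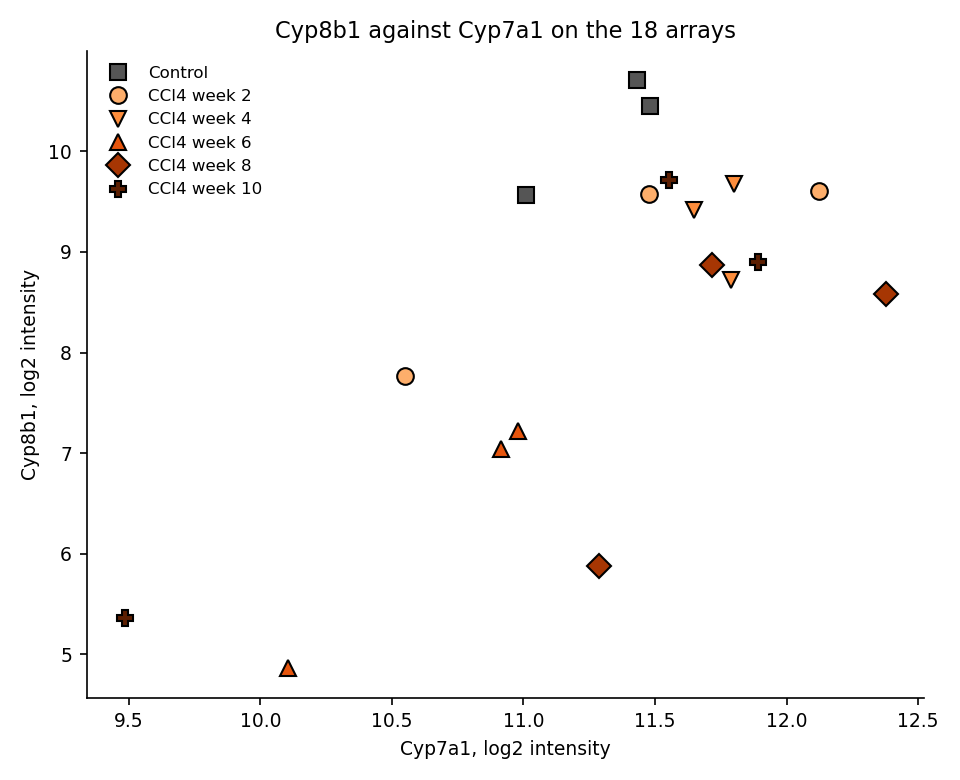
Cyp8b1 against Cyp7a1, both as log2 intensity, with 1 point for each of the 18 arrays and a symbol and colour for each group. Replicate 2 of week 10 (9.48, 5.37) and replicate 3 of week 6 (10.11, 4.86) lie at the lower left, and r is 0.53 over the treated samples without them.

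Week 6, at which Cyp8b1 and Cyp27a1 were called, was also the week with the most calls among genes of the circadian clock, as it was over all genes. Of 15 clock genes, 7 were lower and 2 higher at week 6, 1 was lower at week 10, and none was called at weeks 2, 4 and 8. Over all genes 1.86% were lower and 2.98% higher at week 6, and 0.762% were lower at week 10. The median log2 change of the 15 was −0.40, −0.18, −0.88, −0.27 and −0.43 at weeks 2 to 10. Dbp, a clock output factor known to peak in the day, changed by −2.25 (adjusted p = 0.0136) and Arntl, the core activator, by 1.77 (adjusted p = 0.0061) at week 6. Dbp read 7.02, 7.11 and 9.15 on replicates 1, 2 and 3 of week 6, against 10.53, 10.14 and 10.40 in control livers, while Cyp8b1 was lowest on replicate 3. Synthesis of bile acids is known to follow the time of day and feeding. Hours of killing are not given in the sources used here, and the part of the clock in the changes of week 6 was not tested.

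Nr0b2, the repressor that FXR induces, was lower in most treated livers without a call. It read 7.05, 6.79 and 8.46 at week 2, 8.11, 7.13 and 7.93 at week 4, and 7.65, 7.66 and 7.56 at week 6. It read 7.98, 8.66 and 8.17 at week 8 and 6.14, 7.17 and 7.87 at week 10, against 8.51, 8.66 and 8.22 in control livers. Of 15 treated arrays 13 lay below the control range, 1 inside and 1 above it by less than 0.01. The mean change of all weeks was −0.85 (95% interval −1.62 to −0.07, adjusted p = 0.177), from −0.20 at week 8 to −1.40 at week 10 (adjusted p = 0.909 and 0.0983). With only week 6 and control in the fit, the change of −0.86 at week 6 passed (adjusted p = 0.0281), where the model of all groups gave adjusted p = 0.353. The receptor itself, Nr1h4, read 8.88 to 9.86 in treated livers and 9.47 to 9.69 in control livers. Its changes at weeks 2 to 10 were −0.22, 0.05, −0.46, −0.16 and −0.39 (adjusted p = 0.502, 0.928, 0.0708, 0.66 and 0.11), and the bounds of the 95% interval of the mean were −0.46 and −0.01.

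The members of conjugation, uptake and export were called at no week. Baat read 9.30 to 10.00 in treated livers and 9.72 to 9.78 in control livers, with a mean change of −0.11 (95% interval −0.31 to 0.08, adjusted p = 0.529). Slc10a1 read 11.87 to 12.59 in treated and 12.43 to 12.53 in control livers, with a mean change of −0.23 (−0.54 to 0.08, adjusted p = 0.383). For both genes the interval of the mean stayed within 1.5-fold, but at week 6 alone that of Slc10a1 reached −0.89.

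The export pump Abcb11 was the 1 member above control at every week, with changes of 0.37, 0.14, 0.23, 0.57 and 0.24 and none called (adjusted p = 0.362, 0.832, 0.562, 0.146 and 0.498). It read 11.71, 12.21 and 11.77 at week 8, all above the 11.31, 11.53 and 11.15 of control livers, and its mean change of all weeks was 0.31 (95% interval 0.00 to 0.61, adjusted p = 0.213). The floppase Abcb4 read 9.44 to 10.43 in treated and 9.92 to 10.06 in control livers, with a mean change of −0.12 (95% interval −0.36 to 0.13, adjusted p = 0.608). It stood at −0.25, −0.14, −0.22 and −0.18 at weeks 2, 4, 6 and 10 and at 0.19 at week 8, where all 3 arrays lay above the control range.

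The study's phases were compared as phase III (weeks 8 and 10) against phase II (weeks 4 and 6). No member was called, and 0% of all genes were called lower and 0% higher by limma, while 2189 of all genes and 0 members had an unadjusted p under 0.05. The largest member changes were −0.74 for Cyp7b1 (95% interval −1.72 to 0.24) and 0.25 for both Cyp8b1 (−1.49 to 2.00) and Cyp7a1 (−0.64 to 1.14). Among the 5 weeks of CCl4, the F-test called 0 members and 0.0692% of all genes. At an unadjusted p under 0.05 it held 2752 of all genes and, of the members, Nr1h4 alone (limma adjusted p = 0.331).

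Beyond the 10 members, 49 of 50 listed genes of bile acid synthesis, conjugation, transport and control had a value. At weeks 2, 4, 6, 8 and 10, 3, 3, 4, 2 and 3 of the 49 were called lower and 3, 2, 2, 2 and 1 higher. For the mean of all weeks 5 were lower and 2 higher. Over all genes 0.575%, 0.355%, 1.86%, 0.398% and 0.762% were called lower at weeks 2 to 10, and 0.939% for the mean. Called higher were 0.831%, 0.528%, 2.98%, 0.563% and 1.31% of all genes at these weeks, and 1.64% for the mean. Among 11 other synthesis genes, none was called lower at any week, and the median change ran from 0.00 to 0.06. Cyp39a1, which hydroxylates the oxysterol 24-hydroxycholesterol at the 7α position, rose at 4 of the 5 weeks. It read 9.72, 9.71 and 9.40 at week 2, 9.68, 9.03 and 9.09 at week 4, and 9.01, 8.97 and 9.40 at week 6. It read 9.67, 9.77 and 10.04 at week 8 and 8.80, 9.43 and 9.002 at week 10, against 8.35, 8.52 and 8.24 in control livers. All 15 treated arrays lay above the highest control liver, the opposite of Cyp7b1. The rise was 1.24 at week 2 (adjusted p = 0.0061), 0.90 at week 4 (0.0395), 0.83 at week 6 (0.0323) and 1.46 at week 8 (0.0035), and the change at week 10 was 0.71 (0.0564). On average it was 1.03 (95% interval 0.70 to 1.36, adjusted p = 0.00175), which is 2.04-fold. The call at week 4 was lost without any 1 liver of control or week 4, replicate 1 or 2 of week 2 or replicate 2 of week 8 (adjusted p 0.0509 to 0.145). At week 6 it was lost without control replicate 1 or 3 or its own replicate 3 (0.0759 to 0.278). Acox2, a peroxisomal oxidase of the sterol side chain, rose by 0.80 at week 2 (adjusted p = 0.0234), and this call was lost without any 1 control liver or replicate 2 or 3 of week 2 (0.0615 to 0.109).

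Of 7 other conjugation genes, the peroxisomal acyltransferase Acnat2, a relative of Baat whose probes may also bind its close copies, rose at every week by 3.65 to 4.24. The glucuronosyltransferase Ugt2b1, whose family is closely related too, fell by 1.41 at week 6 (adjusted p = 0.0396), a call lost without any 1 control liver, replicate 1 or 2 of week 4, replicate 3 of week 6 or replicate 1 of week 10 (adjusted p 0.0505 to 0.152). Ugt2b1 read 10.66 to 12.50 in treated livers, all below the 12.58 to 12.89 of control livers. Its change for the mean of all weeks was −1.21 (limma adjusted p = 0.0169), a call lost in 3 fits without 1 array (0.0567 to 0.0938). Of 5 other uptake carriers, 1 was called lower at week 6 and 1 at week 10, and none was called higher at any week. Slco1a1, a carrier of male liver, read 5.40 to 11.62 in treated livers, all below the 12.43 to 12.54 of control livers. It fell by 4.36 at week 10 (95% interval −6.67 to −2.06, adjusted p = 0.0352), where replicate 2, with its pancreatic transcripts, read 5.40 and replicates 1 and 3 read 8.80 and 10.16. Without that replicate the change was −3.00 (adjusted p = 0.0962), and the call was lost as well without replicate 1 of week 10 or any 1 control liver. Slco1a4, its neighbour in sequence, fell by 1.38 at week 6 (adjusted p = 0.0146), but not without replicate 3 of week 6 (0.0549). Slco1a4 was called at no other week. It read 9.66, 10.13 and 9.45 at week 2 and 9.14, 9.12 and 9.28 at week 8, above the 8.85, 8.93 and 9.08 of control livers. At week 4 it read 8.66, 9.74 and 8.93, and at week 10 it read 8.55, 7.68 and 8.56.

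Among 6 other canalicular genes, the sterol transporters Abcg8 and Abcg5, which send cholesterol into bile, were below the lowest control liver on all 15 treated arrays. Abcg8 fell by 1.09, 1.36, 0.95, 0.84 and 0.63 at weeks 2 to 10 (adjusted p = 0.00115, 0.000202, 0.00182, 0.00652 and 0.0162), and the week 10 call was lost without control replicate 1 or 3 or its own replicate 2 (0.0532 to 0.0635). Abcg5 fell by 0.91, 0.77 and 0.67 at weeks 2, 4 and 8 (limma adjusted p = 0.00236, 0.00892 and 0.016), the week 8 call not without control replicate 2 or 3 or replicate 3 of week 8 (0.0566 to 0.0693). The exporter Abcg2 fell by 0.73 at week 2 (adjusted p = 0.00316) and by 0.76 at week 4 (0.00409). None of 5 genes of basolateral export was called at any week. Of 15 other genes that sense or control bile acids, the xenobiotic receptor Nr1i3 (CAR) fell by 1.17 at week 6 and by 1.08 at week 10 (adjusted p = 0.00815 for week 6 and 0.0136 for week 10), the week 10 call not without control replicate 3 or its own replicate 2 (0.0555 to 0.0589).

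Slc10a2, the apical bile acid carrier of ileum and bile duct cells, was listed among 12 cholangiocyte markers and is named here although it was chosen after its values were seen. It read 7.30, 8.52 and 7.63 at week 2, 7.87, 6.72 and 7.87 at week 4, and 8.00, 8.08 and 8.60 at week 6. It read 8.21, 8.19 and 7.95 at week 8 and 7.87, 8.31 and 7.85 at week 10, against 5.11, 6.63 and 6.74 in control livers. Of 15 treated arrays 14 lay above the highest control liver, and 1, replicate 2 of week 4, lay just below it. The rise was 2.16, 1.96 and 1.85 at weeks 6, 8 and 10 (adjusted p = 0.0153, 0.0428 and 0.0313). On average it was 1.79 (95% interval 1.05 to 2.53, adjusted p = 0.00698). The week 6 call was lost without its replicate 3 (0.135), the week 8 call without any 1 liver of control, week 8 or week 10, replicate 3 of week 2 or replicate 3 of week 6 (0.0507 to 0.115) and the week 10 call without control replicate 1 or any 1 liver of week 10 (0.0565 to 0.101). Defining markers of bile duct cells stayed near the bottom of the scale: Krt19 averaged 4.30 in treated and 4.17 in control livers, and Epcam 3.96 and 3.88. Neither they nor Krt7 and Cftr were called. The 12 markers together had a mean level of 4.92 to 5.19 in treated livers and 4.78 to 4.83 in control livers. This mean includes Slc10a2, so the rise of Slc10a2 is part of it. Besides Slc10a2 1 of the 12, the annexin Anxa4, was called (0.75 at week 6).

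**Figure D4:**
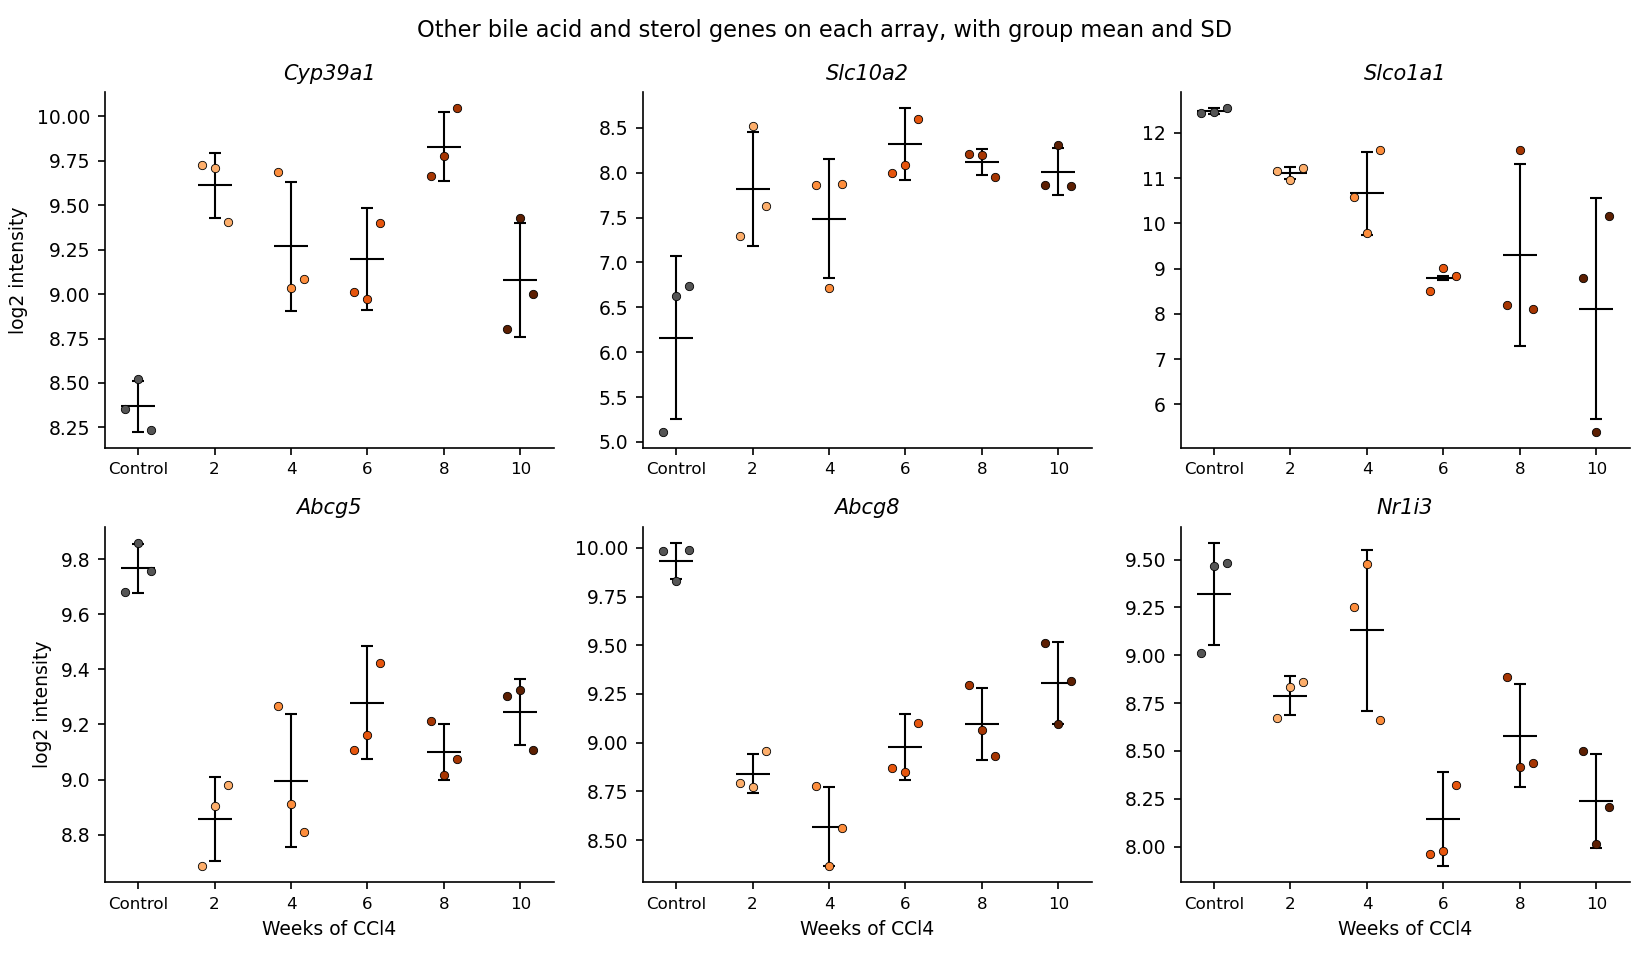
Log2 intensity of 6 other genes on each of the 18 arrays (points), with the mean and SD of each group (bars); the x axis gives the control group and weeks of CCl4, and each panel has its own y axis. Cyp39a1 and Slc10a2 lie higher in treated livers, with 15 and 14 of 15 arrays above the control range, and Slco1a1 and Abcg8 lie below it on all 15.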

How the data were processed

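Liver RNA from 18 mice was hybridised to Affymetrix Mouse Gene 2.0 ST arrays. The deposited log2 intensities were made by the authors with RMA (affyPLM, Brainarray probe sets by Entrez gene; the RMA version was not stated). A sample of the sorted values was the same on 17 of 18 arrays, so a level on those 17 is relative to 1 common distribution. The sampled values of the other array were not all the same as theirs. Of 23748 features 23111 carried 1 gene symbol, and 637 without one were left out. Groups came from the labels, and no label states separate litters, so p-values measure the spread between these samples.

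Values were fitted in limma 3.58.1 (R 4.3.3) with a mean per group in 1 model of 17 samples, replicates 1 and 2 of week 6 entering as their mean. P-values were adjusted by Benjamini-Hochberg over all 23111 genes, and calls needed adjusted p below 0.05 together with a fold above 1.5, the thresholds of the study's methods. 95% intervals used limma's moderated SE. The fit was tested on simulated data. Correlations used 100000 resamples. Members and gene lists were chosen with earlier results of these data known. The text names all 10 members, at most 4 called genes of each other bile acid list, by the largest mean change, and the 3 genes most like Cyp7a1, Cyp7b1 and Cyp8b1. Slc10a2, Anxa4, Hnf4a, Nr5a2 and the marker and clock genes were added after their values were seen. Alternatives were 2-fold and no fold threshold, a fit of only the compared groups, a robust prior in limma-trend, weights per array, 18 separate arrays, a replicate block, dim features left out, median centring, repeated quantile normalisation, all features counted, and each array left out. Figures were drawn with matplotlib 3.10.9.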

Additional observations from a re-analysis of the deposited data

Results flagged for a closer look

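In 2 members, all samples of one week lay on the opposite side of the control mean from all samples of another. For Cyp7a1, all samples of week 4 lay above the control mean, at 0.44 on average, and all samples of week 6 below it, at −0.78, a difference of 1.22 on the log2 scale. For Abcb4, all samples of week 8 lay above the control mean, at 0.19, while all samples of weeks 2, 6 and 10 lay below it, at −0.25, −0.22 and −0.18, which gives differences of 0.44, 0.42 and 0.38. These differences between pairs of weeks were not tested, and the F-test over all 5 weeks of CCl4 gave adjusted p = 0.679 for Cyp7a1 and 0.445 for Abcb4 by limma.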

How the results depend on the processing

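Of 3557 values of single genes under the alternatives, 3373 kept their direction and their side of the threshold, 144 lost a call, 2 gained one and 38 changed sign, all of the last in changes that were not called. Leaving out 1 array each time, the count of members called ran from 0 to 1 at week 2, 0 to 3 at week 6, 0 to 1 at week 8 and 1 to 2 at week 10, and stayed at 0 at week 4, at 1 for the mean of all weeks and at 0 for phase III against phase II and among weeks. With only both groups in the fit, the count at week 8 was 0. For Cyp7a1 and Cyp8b1 r was 0.87 as deviations from week means and 0.53 without the 2 farthest samples, neither past the adjusted threshold. The cause was not tested.

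Changes that crossed 0 without 1 array ranged, for Cyp7a1, from −0.29 to 0.49 at week 2, −0.79 to 0.42 at week 10 and −0.17 to 0.13 for the mean. They ranged from −0.10 to 0.014 for Baat, −0.18 to 0.040 for Slc10a1 and −0.065 to 0.15 for Nr1h4 at week 4, and from −0.061 to 0.33 for Abcb11 at week 6. For phase III against phase II they ranged from −0.31 to 0.91 for Cyp8b1, −0.047 to 0.27 for Cyp27a1, −0.076 to 0.053 for Baat, −0.032 to 0.14 for Slc10a1, −0.20 to 0.23 for Nr0b2 and −0.12 to 0.0088 for Nr1h4. The mean change of Cyp7a1 was 0.0060 with 18 separate arrays, with or without the replicate block. Nr0b2 between the phases was −0.13 with array weights and −0.0055 with 18 separate arrays, with or without the block.

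Replicate numbers did not pair the mice: of 45 pairs of samples with the same number, 9 had deviations correlated above 0.1 (median −0.03). With the replicate block, the members called were as many as without it. Among the named genes, the calls of Cyp39a1 at week 4 and of Slco1a1 for the mean of all weeks were lost with the block. Over all genes, calls at weeks 2 to 10 numbered 147, 107, 446, 110 and 197 with a fold of 2 and 617, 398, 2258, 417 and 1151 with no fold threshold, beside 325, 204, 1118, 222 and 478. They were 94 at week 4 with only both groups in the fit. That fit also lost the calls of Cyp39a1 and Abcg5 at week 4, Slc10a2 at weeks 6, 8 and 10, Dbp and Arntl at week 6 and Slco1a1 at week 10. Slco1a1 at week 10 and for the mean of all weeks was lost with a robust prior too (adjusted p = 0.0725 for the mean), the call for the mean was lost in 14 of the fits without 1 array (adjusted p up to 0.163), and Abcg8 at week 10 with array weights. With a fold of 2 and no fold threshold the mean of all weeks had 230 and 2037 calls, beside 596. Phase III against phase II had 1 call with array weights or without dim features, and 2 and 6 with 18 separate arrays without and with the block. The F-test had 0 calls with only these groups in the fit, 27 with a robust prior, 38 with array weights, 31 without dim features, and 125 and 114 with 18 separate arrays without and with the block, beside 16. The mean of all weeks uses every group, so no separate fit with only its groups exists.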
